A study of Mus musculus with 8 samples.

Results

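The genes described here are 58 collagens and extracellular matrix genes among the 55335 genes counted in mouse vagal ganglia. They comprise 43 collagen genes, recognised by a Col symbol with a chain number, and 15 genes picked by symbol: the small leucine-rich proteoglycans Dcn, Lum, Ogn, Bgn, Fmod, Prelp and Aspn, the microfibril and elastic fibre genes Mfap5, Fbn1 and Fbln1, and Postn, Sparc, Fn1, Dpt and Pi16. All 58 are annotated as protein coding and had at least 80 counts summed over the 8 libraries, and the rule uses symbol and total count. Of 59 candidates 1 had too few counts, Col9a1 with 20, while the sparsest gene kept was Col17a1 with 81, followed by Col6a6 with 157.

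Vagal ganglia contain sensory nerve cell bodies whose fibres reach the airways, heart and gut through the vagus, together with glia, vessels and a connective tissue covering. The HDM group had 4 libraries of ganglia from wild-type (WT) mice treated with HDM, which usually stands for house dust mite, an airway allergen. The Saline group had 4 libraries from WT mice given saline, and ganglia of both groups were taken 1.5 h after challenge number 4. Each library was a pool of 6 to 8 ganglia from 3 to 4 mice, so the p-values below measure the spread between pools. The labels also give a batch number from 1 to 4 that equals the replicate number, and each batch holds 1 HDM and 1 Saline library. The sources used here do not give strain, sex, age, dose or route.

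Collagens are triple-helical proteins. Fibril-forming collagens such as I, III and V give connective tissue its tensile strength, collagen IV builds the sheets of basement membranes that wrap Schwann cells, satellite glia and vessels, and small leucine-rich proteoglycans coat fibrils and set their spacing. In peripheral nerves and ganglia this matrix is made by fibroblasts, perineurial cells, Schwann cells and the cells of vessels.

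Library totals were 23.95 to 26.67 mega-counts (M) in HDM and 26.87 to 31.28 M in Saline. The markers were those of a sensory ganglion. Levels are in CPM, that is counts scaled to a common library total. The summed level of 10 sensory neuron markers was 4944 to 5224 CPM in HDM and 4544 to 4765.5 CPM in Saline. Each HDM library lay above each Saline library in this sum. The 15 fibroblast markers, 7 of which are themselves among the 58 genes, summed to 1137 to 1202 CPM in HDM and 1098 to 1508 CPM in Saline. The 10 cartilage and bone markers summed to 29.96 to 36.4 CPM in HDM and 32.4 to 38.0 CPM in Saline, mostly from Cnmd (14.2 to 16.6 CPM) and Hapln1 (7.24 to 13.01 CPM), while Matn1, a cartilage matrix gene, had 0 counts in all 8 libraries. The 8 epithelial markers summed to 141 to 169 CPM in HDM and 159 to 169 CPM in Saline, nearly all from Cdh1 (138 to 167 CPM), while the keratin Krt5 had 0 counts in 7 of 8 libraries. The library that stood apart for matrix genes was Saline 1. It held the highest level of 30 of the 57 tested matrix genes (52.6%), against 17.1% of all genes tested, and the lowest level of 0. Matrix genes took 0.272% to 0.303% of the counts in HDM, 0.34% in Saline 1 and 0.262% to 0.311% in the other Saline libraries. Some marker lists moved with it. Highest in Saline 1 were 9 of 10 perineurial and meningeal markers, 8 of 14 tested fibroblast markers and 8 of 10 macrophage markers. So were 8 of 10 myelinating Schwann cell markers and 7 of 10 endothelial markers. Other lists did not, with 0 of 10 sensory neuron and 0 of 7 nonmyelinating Schwann cell markers highest there. For satellite glia it was 2 of 8, and for pericytes and smooth muscle cells 3 of 9 tested markers. The part of these cells in the results below was not tested. Values without Saline 1 are given for some of these results, but not for others and not for the marker lists.

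The 1 matrix gene called in the group comparison, Ogn, lies on mouse chromosome 13 in a run of related matrix genes that are read in the same direction, Ecm2, Aspn, Omd and Ogn. The letters that end just before each RefSeq start (GRCm38.p6, plus strand, 250 bases, 5′ to 3′) are shown because these genes neighbour each other and are described side by side below. Capitals mark every match on either strand to the TATA box motif, TATAAA, to the core of the CCAAT box, searched as CCAAT, or to the GC box motif, searched as GGGCGG. A match on the other strand therefore shows as TTTATA for the TATA box, as ATTGG for the CCAAT box and as CCGCCC for the GC box.
Ecm2 (chr13:49504560-49504809): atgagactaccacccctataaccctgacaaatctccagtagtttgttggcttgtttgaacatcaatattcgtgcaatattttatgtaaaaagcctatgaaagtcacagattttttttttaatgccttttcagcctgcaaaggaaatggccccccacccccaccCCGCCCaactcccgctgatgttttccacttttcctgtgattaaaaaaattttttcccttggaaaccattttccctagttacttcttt
Aspn (chr13:49544193-49544442): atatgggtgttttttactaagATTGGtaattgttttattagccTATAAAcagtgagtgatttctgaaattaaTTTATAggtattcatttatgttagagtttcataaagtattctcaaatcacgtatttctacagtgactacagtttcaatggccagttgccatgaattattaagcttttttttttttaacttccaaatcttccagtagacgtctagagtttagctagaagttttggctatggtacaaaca
Omd (chr13:49582212-49582461): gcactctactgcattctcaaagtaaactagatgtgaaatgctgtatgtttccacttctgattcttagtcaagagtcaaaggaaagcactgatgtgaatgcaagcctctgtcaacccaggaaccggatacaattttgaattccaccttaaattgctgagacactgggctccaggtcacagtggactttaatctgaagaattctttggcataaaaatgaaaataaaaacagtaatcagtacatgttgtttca
Ogn (chr13:49607765-49608014): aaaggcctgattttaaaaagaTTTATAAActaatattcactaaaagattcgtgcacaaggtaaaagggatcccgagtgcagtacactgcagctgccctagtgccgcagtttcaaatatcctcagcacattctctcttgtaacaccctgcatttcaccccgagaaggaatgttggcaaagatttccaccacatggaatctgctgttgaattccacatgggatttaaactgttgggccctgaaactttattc
The Ogn window held TATAAA on both strands in 1 overlapping stretch, the Aspn window held 2 separate TATAAA matches and 1 CCAAT, the Ecm2 window held 1 GGGCGG, and the Omd window held 0 of the 3 motifs. A window of this kind was listed for 45 of the 58 genes, 49 windows in all. TATAAA was present in 8 of the 49 (16.3%), against 12.4% of all 32851 windows in the RefSeq table, CCAAT in 15 (30.6%, against 33.8%), and GGGCGG in 25 (51.0%, against 32.7%). A match only says that the letters are there.

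HDM libraries were compared with Saline libraries to ask which matrix transcripts differed shortly after the last challenge. Ogn, which encodes osteoglycin, a small leucine-rich proteoglycan of connective tissue, fell in HDM ganglia, and it was the 1 matrix gene called by edgeR's quasi-likelihood test at an adjusted p under 0.05. Of the 57 genes with enough counts to test, 1 (1.75%) was therefore called, against 244 of all 17618 genes tested (1.38%). Lower calls were 1 among matrix genes and 28 overall (0.159%), and higher calls were 0 among matrix genes and 216 overall (1.23%). In the absence of an adjusted call, 5 matrix genes were higher at an unadjusted p under 0.05, DESeq2 called 2 as higher and limma-voom called 0. At that unadjusted p, 12 matrix genes (21.1%) and 18.1% of all genes passed. A share of called genes near that of the whole table is not a result about matrix genes.

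Including the batch as a block raised the called matrix genes to 2 higher, the basement membrane chains Col4a1 and Col4a2, and 3 lower, Ogn, Dcn and Mfap5. Over all genes the block called 531 as higher (3.01%) and 182 as lower (1.03%). Libraries of a batch shared little variation: their deviations from the group means correlated at −0.047 to 0.21 over genes. With a correction for the GC content of transcripts, 0 matrix genes were called by edgeR, with or without the block (14 with it and 13 without it at an unadjusted p under 0.05), and over all genes 0 were called without the block (2054 at an unadjusted p under 0.05) and 27 with it. When batch 1 was left out of the blocked fit, which then held 2 libraries fewer, Ogn was the 1 matrix gene called, and 150 genes were called overall. That batch was chosen after seeing the data, and the blocked fit was not run without any other batch. These libraries are bulk tissue, in which fewer cells of a type and less RNA per cell cannot be told apart.

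The 4 HDM libraries lay wholly above the 4 Saline libraries for 3 matrix genes (5.26%), Col4a1, Col4a2 and Col10a1, against 6.25% of all genes. Col10a1, with 158 counts in all, did so narrowly, at 0.685 CPM in HDM 2 and 0.681 CPM in Saline 4. The HDM libraries lay wholly below for another 3 (5.26%), Ogn, Mfap5 and Col23a1, against 4.39% of all genes. Both shares are near those of the whole table, and the groups overlapped for the other 51. The log2 fold change of HDM over Saline was above 0 for 20 matrix genes and below 0 for 37, with a median of −0.058, against −0.0055 over all genes. Without Saline 1 the split was 30 above and 27 below and the median was 0.031, so the direction of the median rested on that library. Matrix genes also varied more between pools of 1 group: their median within-group SD on the log2 scale was 0.20, against 0.12 over all genes.

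**Figure D1:**
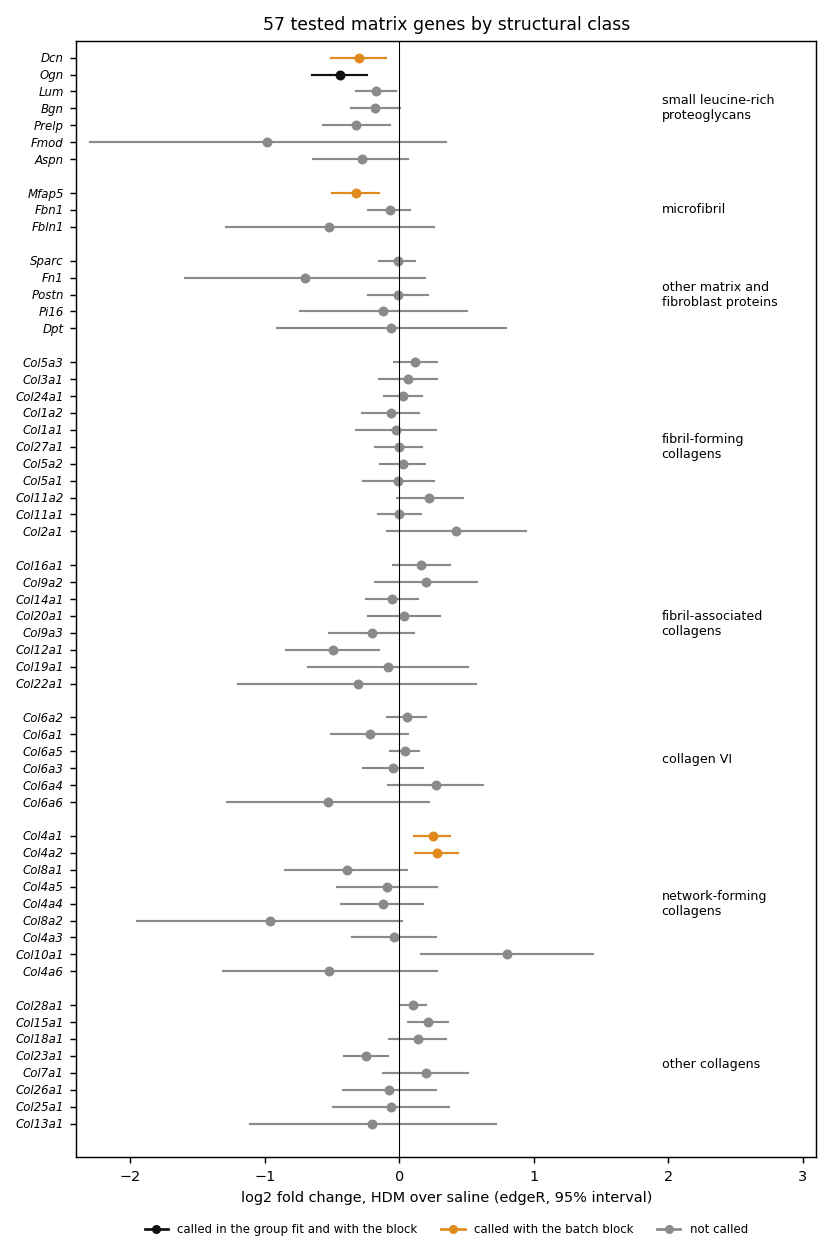
Log2 fold change (HDM over Saline, x axis) with its 95% interval for the 57 tested matrix genes, arranged by structural class from top to bottom and by level within a class. Ogn is called in both fits (black), Dcn, Mfap5, Col4a1 and Col4a2 with the batch block (orange), and the widest interval belongs to Fmod.

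All 7 small leucine-rich proteoglycans had a log2 fold change below 0, with a median of −0.30, and all 7 were highest in Saline 1. With either other scaling, with the GC correction, or without Saline 1, all 7 stayed below 0, and the median was −0.23 with the GC correction and −0.18 without Saline 1. When batch 1 was left out, 6 of 7 did, with a median of −0.14, the exception being Fmod. Of the 7, 1 was called lower, against 0.159% of all genes tested, or 2 with the block, against 1.03%. Markers of myelinating Schwann cells moved the same way: 9 of 10 had a log2 fold change below 0, with a median of −0.19, and their summed level was 2700.4 to 2979 CPM in HDM and 2816.5 to 3447 CPM in Saline. Of them Pmp22, a myelin membrane protein gene, was called lower by edgeR (log2 fold change −0.23, adjusted p = 0.0336). So was Drp2 with the block (−0.24, adjusted p = 0.0328). With block and GC correction the adjusted p was 0.0984 for Pmp22 and 0.104 for Drp2. Of the 7 genes listed for nonmyelinating Schwann cells, 6 had log2 fold changes above 0 and 1 below, with a median of 0.13. Of them edgeR called Ngfr higher (0.29, adjusted p = 0.0445) and Scn7a lower (−0.26, adjusted p = 0.0468). With block and GC correction the adjusted p was 0.151 for Ngfr and 0.112 for Scn7a. Which cells of the ganglion the transcripts of these 7 genes came from was not tested. Pericyte and smooth muscle cell markers had 6 of 9 above 0 and 3 below, with a median of 0.18. Below 0 were 10 of 14 tested fibroblast markers (median −0.06), a list that includes Dcn and Lum. So were 9 of 10 perineurial and meningeal markers (−0.48) and 6 of 8 satellite glia markers (−0.089). For endothelial cells and for macrophages it was 5 of 10 each (−0.013 and −0.032), and for sensory neurons 4 of 10 (0.03). Of the sensory neuron markers edgeR called 1 higher, Prph (0.26, adjusted p = 0.0219), against 1.23% of all genes tested. With the block 3 were called higher, against 3.01%. With block and GC correction the adjusted p of Prph was 0.183. The part of the listed cell types in the proteoglycan levels was not tested.

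Ogn (ENSMUSG00000021390, chr13:49608046-49624501, plus strand) had 99.5, 87.3, 107 and 86.7 CPM in the HDM libraries, against 159, 123, 119 and 116 CPM in the Saline libraries. Every HDM library was lower than every Saline library, and the HDM library was the lower one in 4 of 4 batches. The means were 95 ± 9.70 CPM in HDM pools and 129 ± 20.1 CPM in Saline pools (SD, n = 4 each), a fold of 0.735 (log2 fold change −0.44, SE 0.094, 95% interval −0.65 to −0.24, adjusted p = 0.039). With the block the adjusted p was 0.0119. With the GC correction the log2 fold change was −0.37 and the adjusted p 0.225, or 0.104 with block and GC correction, and a robust dispersion gave 0.0934. The call was kept without HDM 3 (adjusted p = 0.0218), Saline 1 (0.0285) or Saline 4 (0.0335), and lost without HDM 1 (0.112), HDM 2 (0.147), HDM 4 (0.115), Saline 2 (0.0616) or Saline 3 (0.103). Leaving out both libraries of a batch also ended it, with an adjusted p of 0.0781 for batch 1, 0.202 for batch 2, 0.0764 for batch 3 and 0.0917 for batch 4. Its log2 fold change stayed between −0.54 and −0.34 in these fits. The gene Cenpp spans the whole run on the opposite strand, and it had 150 counts over the 8 libraries, against 24884 for Ogn.

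The neighbours of Ogn on chromosome 13 did not pass. Aspn, which encodes asporin and is the other member of the run among the 58, had 2.30, 2.59, 2.30 and 3.06 CPM in the HDM pools and 3.79, 3.31, 2.57 and 2.86 CPM in the Saline pools (log2 fold change −0.28, SE 0.16, adjusted p = 0.377). The ranges overlap, and Saline 1 was again the highest library. Both neighbours from the wider proteoglycan list overlap between groups as well, with log2 fold changes of −0.60 (Omd, SE 0.26, adjusted p = 0.242) and −0.32 (Ecm2, SE 0.12, adjusted p = 0.171). Omd, which encodes osteomodulin, averaged 2.76 ± 0.393 CPM in HDM and 4.21 ± 1.98 CPM in Saline, and Ecm2 19.2 ± 1.59 CPM in HDM and 24.0 ± 4.71 CPM in Saline (SD, n = 4 each).

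Dcn (ENSMUSG00000019929, chr10:97479609-97518143, plus strand), which encodes decorin, the proteoglycan that binds collagen I fibrils and transforming growth factor beta, had 453, 395, 413 and 386 CPM in the HDM libraries, against 641, 496, 441 and 455 CPM in the Saline libraries. The HDM library was the lower one in each of the 4 batches, but HDM 1 lay within the Saline range. The group fit did not call it (log2 fold change −0.30, SE 0.097, adjusted p = 0.127), and the block did (−0.29, adjusted p = 0.0257, or 0.214 with block and GC correction). Saline 1 was far above the other Saline libraries, and without it the log2 fold change was −0.18; the block without batch 1 gave −0.22 with an adjusted p of 0.0686.

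The other proteoglycans were not called in either fit. Lum, which encodes lumican, a fibril spacer best known from the cornea, had 39.4, 43.0, 40.8 and 37.7 CPM in the HDM pools and 51.5, 40.6, 43.7 and 45.8 CPM in the Saline pools (log2 fold change −0.17, SE 0.069, adjusted p = 0.208). Bgn, which encodes biglycan, a close relative of decorin, had 47.6, 51.2, 60.4 and 56.9 CPM in the HDM pools and 69.6, 64.9, 54.7 and 55.4 CPM in the Saline pools (log2 fold change −0.18, SE 0.086, adjusted p = 0.292). In both genes Saline 1 was the highest library and the groups overlap. Prelp, a proteoglycan that links basement membranes to connective tissue, had 16.3, 16, 17.5 and 16.3 CPM in the HDM pools and 26.5, 20.0, 20.0 and 16.1 CPM in the Saline pools (log2 fold change −0.32, SE 0.12, adjusted p = 0.174). The HDM libraries of Prelp were close together, Saline 1 was far above them, and Saline 4 fell within their range. Fmod, which encodes fibromodulin, had 4.60, 2.59, 17.9 and 11.1 CPM in the HDM pools and 40.6, 12.9, 15.5 and 2.66 CPM in the Saline pools (log2 fold change −0.98, SE 0.62, adjusted p = 0.429). Its libraries ranged 15.7-fold, the widest of all 57 genes, with high and low pools in both groups.

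Mfap5 (ENSMUSG00000030116, chr6:122505845-122529290, plus strand), which encodes a glycoprotein of elastic microfibrils, had 18.9, 16.6, 17.2 and 18.1 CPM in the HDM libraries, against 25.3, 22.9, 19.6 and 21 CPM in the Saline libraries. All 4 HDM libraries lay below all 4 Saline libraries. The group fit gave a log2 fold change of −0.32 (SE 0.082, adjusted p = 0.0671), which the block called (adjusted p = 0.0396, or 0.111 with block and GC correction, and with block and without batch 1 a log2 fold change of −0.29 with an adjusted p of 0.119). The other microfibril and elastic fibre genes did not pass. Fbn1, which encodes fibrillin-1, the backbone of microfibrils, had 28.8, 29.9, 28.5 and 27.2 CPM in the HDM pools and 33.8, 31.5, 28.4 and 26.7 CPM in the Saline pools (log2 fold change −0.072, SE 0.072, adjusted p = 0.633). Its libraries were close together and the groups overlap. Fbln1, which encodes fibulin-1, had 4.06, 3.92, 7.11 and 8.34 CPM in the HDM pools and 15.4, 6.34, 8.69 and 3.41 CPM in the Saline pools (log2 fold change −0.52, SE 0.36, adjusted p = 0.474), with Saline 1 far above the other libraries. Without batch 1 and with the block, the log2 fold change of Fbln1 was 0.09.

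**Figure D2:**
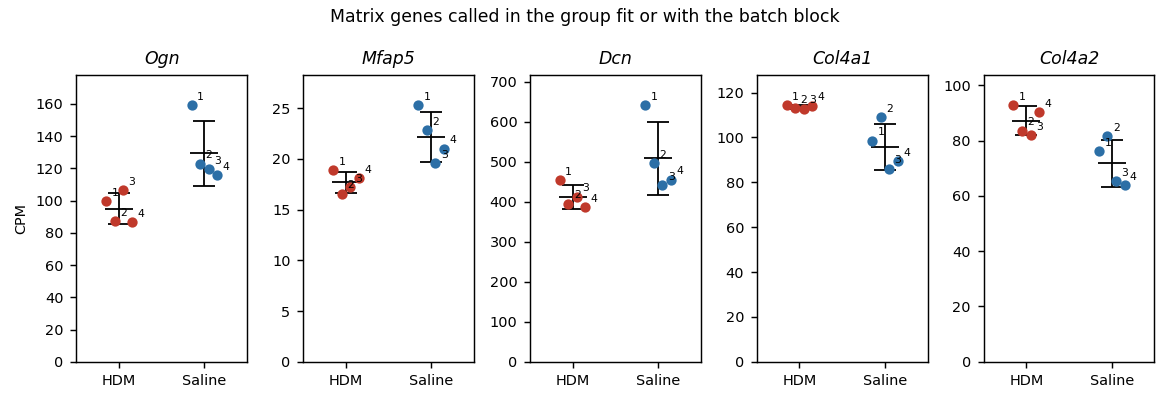
CPM of Ogn, Mfap5, Dcn, Col4a1 and Col4a2 in each library (points, numbered by batch), with the group mean and SD (bars, n = 4 each) and each y axis starting at 0. HDM points of Ogn and Mfap5 lie below all Saline points, those of Col4a1 and Col4a2 above, and Saline 1 is the highest point of Ogn, Mfap5 and Dcn.

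The ubiquitous pair of collagen IV chains was higher in HDM, which edgeR called with the block and not in the group fit. Col4a1 (ENSMUSG00000031502, chr8:11198423-11312826, minus strand) and Col4a2 (ENSMUSG00000031503, chr8:11312805-11449287, plus strand) encode the chains of the common basement membrane collagen and are read away from each other from overlapping starts. Col4a1 had 114, 113, 113 and 114 CPM in the HDM libraries, against 98.6, 109, 86.1 and 89.4 CPM in the Saline libraries. Col4a2 had 92.7, 83.5, 81.9 and 90.2 CPM in the HDM libraries, against 76.2, 81.5, 65.3 and 63.8 CPM in the Saline libraries. In both genes each HDM library was above each Saline library and above its batch partner, Col4a1 with a spread of 0.774 CPM (SD) in HDM and 10.3 CPM in Saline. Neither passed the group fit (Col4a1 log2 fold change 0.25, SE 0.063, adjusted p = 0.0689; Col4a2 0.28, SE 0.074, adjusted p = 0.0754). Both passed with the block (adjusted p = 0.0345 for Col4a1 and 0.0398 for Col4a2). With block and GC correction both had a log2 fold change of 0.15 (adjusted p = 0.18 and 0.214), and with the block but without batch 1 the log2 fold change was 0.26 for Col4a1 (adjusted p = 0.0876) and 0.29 for Col4a2 (adjusted p = 0.105). Without Saline 2, the highest Saline library of both, the group fit called both (adjusted p = 0.0417 and 0.047). Since the strand setting of the counting is unknown, reads of the overlapping starts may have been counted for either gene or for neither. The ratio of Col4a1 to Col4a2 per length was 1.16 ± 0.0616 in HDM and 1.19 ± 0.0406 in Saline (SD, n = 4 each), with overlapping ranges.

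The tissue-restricted collagen IV chains, known best from the glomerulus, the inner ear and the lung, had lower levels and did not pass. Col4a3 had 2.64, 3.16, 2.94 and 3.02 CPM in the HDM pools and 3.42, 2.68, 3.39 and 2.63 CPM in the Saline pools (log2 fold change −0.039, SE 0.14, adjusted p = 0.918). Its head-to-head partner Col4a4 had 5.19, 5.10, 6.91 and 5.66 CPM in the HDM pools and 7.70, 5.26, 5.61 and 6.39 CPM in the Saline pools (log2 fold change −0.12, SE 0.14, adjusted p = 0.683). The groups overlap in both, as they do on the X chromosome for Col4a5, with 4.27, 4.68, 5.13 and 6.00 CPM in the HDM pools and 7.47, 4.62, 5.13 and 4.25 CPM in the Saline pools (log2 fold change −0.091, SE 0.17, adjusted p = 0.821). Col4a6, which neighbours it, had 0.502, 0.457, 0.914 and 0.604 CPM in the HDM pools and 1.62, 0.669, 0.787 and 0.519 CPM in the Saline pools (log2 fold change −0.52, SE 0.37, adjusted p = 0.487). Saline 1 was the highest library for all of these chains. The remaining network-forming collagens were Col8a1 and Col8a2, known from the matrix under endothelia, and Col10a1, known from growth plate cartilage, with log2 fold changes of −0.39, −0.96 and 0.80 and adjusted p from 0.183 to 0.339.

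Fibril-forming collagens gave no call in either fit, with 7 of 11 log2 fold changes above 0 (6 with the GC correction, 9 without Saline 1) and a median of 0.027. Col1a1, the gene of the major chain of collagen I, had 31.4, 39.8, 52.8 and 41.9 CPM in the HDM pools and 48.3, 48.5, 36.3 and 36.1 CPM in the Saline pools (log2 fold change −0.026, SE 0.14, adjusted p = 0.943). Its partner Col1a2 had 104, 117, 138 and 129 CPM in the HDM pools and 146, 144, 109.6 and 112 CPM in the Saline pools (log2 fold change −0.065, SE 0.10, adjusted p = 0.776). Saline 1 and Saline 2 were both high and HDM 1 was the lowest library for each. The ratio of Col1a1 to Col1a2 per length was 0.638 ± 0.0627 in HDM and 0.625 ± 0.0107 in Saline (SD, n = 4 each). Col3a1, which forms thin fibrils with collagen I, had 91.8, 122, 121 and 121 CPM in the HDM pools and 117, 126, 92.8 and 100.5 CPM in the Saline pools (log2 fold change 0.062, SE 0.10, adjusted p = 0.784). HDM 1 stood far below the other HDM libraries, which were close together, and the groups overlap. Without HDM 1 the log2 fold change of Col3a1 was 0.15, and without both libraries of batch 1 it was 0.19.

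Collagen V starts and thins collagen I fibrils, and its chain Col5a3 was, with Col28a1, the most abundant collagen transcript per length. Col5a3 had 199, 196, 213 and 193 CPM in the HDM pools and 186, 215, 180.1 and 158 CPM in the Saline pools (log2 fold change 0.12, SE 0.074, adjusted p = 0.43). Col5a1 had 37.8, 41.3, 51.3 and 41.0 CPM in the HDM pools and 54.0, 45.9, 37.8 and 34.6 CPM in the Saline pools (log2 fold change −0.0062, SE 0.12, adjusted p = 0.986). Col5a2 had 48.7, 51.3, 53.1 and 49.8 CPM in the HDM pools and 50.8, 58.6, 45.5 and 44.3 CPM in the Saline pools (log2 fold change 0.027, SE 0.076, adjusted p = 0.891). The groups overlap for all chains of collagen V, and Saline 4 was the lowest library for each. With the GC correction the log2 fold change of Col5a3, whose longest transcript has 61.6% GC, was −0.019, on the other side of 0. The other fibril-forming genes Col2a1, Col11a1, Col11a2, Col24a1 and Col27a1 had log2 fold changes between −0.0017 and 0.42, and the smallest adjusted p among them was 0.307, for Col11a2.

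Collagen VI, a beaded filament around cells and basement membranes, was also without a call, with 3 of 6 log2 fold changes above 0 and 3 below (2 and 4 with the GC correction). Col6a1 had 18.3, 22.1, 25.8 and 23.4 CPM in the HDM pools and 31.3, 29.5, 24.4 and 19.4 CPM in the Saline pools (log2 fold change −0.22, SE 0.13, adjusted p = 0.408). Col6a2 had 94.7, 87.6, 89.0 and 90.1 CPM in the HDM pools and 99.1, 89.9, 83.5 and 75.3 CPM in the Saline pools (log2 fold change 0.056, SE 0.069, adjusted p = 0.714). Col6a3 had 32.2, 29.8, 36.9 and 37.4 CPM in the HDM pools and 34.2, 43.7, 30.6 and 31.9 CPM in the Saline pools (log2 fold change −0.043, SE 0.10, adjusted p = 0.867). Saline 1 led for Col6a1 and Col6a2 and Saline 2 for Col6a3, and in each the groups overlap. Col6a4, which encodes a further chain in the mouse, had 3.60, 2.86, 2.78 and 4.27 CPM in the HDM pools and 3.06, 2.90, 2.87 and 2.37 CPM in the Saline pools (log2 fold change 0.27, SE 0.16, adjusted p = 0.407). Col6a5 had 41.7, 39.9, 38.4 and 39.8 CPM in the HDM pools and 41.6, 38.7, 38.3 and 36.6 CPM in the Saline pools (log2 fold change 0.042, SE 0.052, adjusted p = 0.717), nearly level over all libraries. Col6a6 had 0.418, 0.457, 0.556 and 0.868 CPM in the HDM pools and 1.40, 0.574, 0.821 and 0.584 CPM in the Saline pools (log2 fold change −0.53, SE 0.35, adjusted p = 0.452) and was the sparsest chain, with Saline 1 above all others.

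Fibril-associated collagens, which sit on fibril surfaces, had 3 of 8 log2 fold changes above 0 (2 with the GC correction, 4 without Saline 1) and no call. The smallest p of the class was that of Col12a1, a collagen of nerve sheaths, tendon and fascia, with 6.95, 8.45, 10.5 and 9.25 CPM in the HDM pools and 16.3, 11.7, 12.5 and 9.12 CPM in the Saline pools (log2 fold change −0.49, SE 0.16, adjusted p = 0.131). HDM 1 was its lowest library and Saline 1 its highest, and the groups overlap through Saline 4. Col14a1, its close relative, had a log2 fold change of −0.057 (adjusted p = 0.779), and Col16a1, the most abundant of the class per length, 0.16 (adjusted p = 0.403). The other 5, Col9a2, Col9a3, Col19a1, Col20a1 and Col22a1, lay between −0.31 and 0.20.

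Among the other collagens, Col28a1 was the most abundant. It encodes a beaded collagen known from Schwann cell basement membranes in mouse nerve, and it had 132, 142, 144 and 133 CPM in the HDM pools and 129, 134, 129 and 122 CPM in the Saline pools (log2 fold change 0.099, SE 0.045, adjusted p = 0.265). Its HDM library was the higher one in 4 of 4 batches, with overlapping groups. Col15a1, a basement membrane collagen at the border to connective tissue, had 51.7, 53.8, 54.6 and 51.2 CPM in the HDM pools and 45.4, 52.8, 40.9 and 42.8 CPM in the Saline pools (log2 fold change 0.21, SE 0.069, adjusted p = 0.128). Only Saline 2 of the Saline libraries reached its HDM range, and without Saline 2 the group fit called it as higher (log2 fold change 0.29, adjusted p = 0.0417). Col23a1, a transmembrane collagen, had 17.0, 17.6, 19.4 and 18.3 CPM in the HDM pools and 24.2, 19.9, 21.7 and 20.2 CPM in the Saline pools (log2 fold change −0.25, SE 0.076, adjusted p = 0.114), with every HDM library below every Saline library. Col18a1, the other collagen of this border zone and the source of endostatin, had a log2 fold change of 0.14 (adjusted p = 0.502), and Col7a1, Col13a1, Col25a1 and Col26a1 lay between −0.20 and 0.20. Col17a1, the hemidesmosome collagen, was too sparse to test, with 0.267 to 0.491 CPM in HDM and 0.308 to 0.442 CPM in Saline.

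The remaining matrix glycoproteins and fibroblast proteins had 5 of 5 log2 fold changes below 0 in the group fit, 4 with the GC correction and 3 without Saline 1, and none was called. Sparc, which encodes osteonectin, a collagen-binding protein, had 423, 446, 476 and 496 CPM in the HDM pools and 441, 504, 427 and 484 CPM in the Saline pools (log2 fold change −0.012, SE 0.063, adjusted p = 0.942). It was nearly level over the 8 libraries, and the direction turned to 0.004 with the block and without batch 1. Postn, which encodes periostin, a matrix protein associated with allergic airway disease, had 21, 28.4, 27.7 and 30.2 CPM in the HDM pools and 23.3, 30.1, 28.1 and 26.7 CPM in the Saline pools (log2 fold change −0.012, SE 0.10, adjusted p = 0.965). The groups overlap, HDM 1 was the lowest library, and with the GC correction the log2 fold change was 0.071. Dpt, which encodes dermatopontin, had 1.17, 0.609, 1.11 and 0.906 CPM in the HDM pools and 1.33, 1.59, 0.308 and 0.714 CPM in the Saline pools (log2 fold change −0.058, SE 0.39, adjusted p = 0.956). Saline libraries held both its highest and its lowest value, and its direction turned with the block (0.035). Pi16, a marker of adventitial fibroblasts, had 2.13, 3.58, 4.05 and 5.74 CPM in the HDM pools and 6.37, 4.02, 2.33 and 4.28 CPM in the Saline pools (log2 fold change −0.12, SE 0.29, adjusted p = 0.86), again with wide overlap.

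Fn1, which encodes fibronectin, varied widely between pools of the same group. It had 40.1, 31.0, 90.4 and 79.1 CPM in the HDM libraries, against 180.2, 63.0, 115 and 34.7 CPM in the Saline libraries. Saline 1 and Saline 3 were high and Saline 4, HDM 2 and HDM 1 low, a 5.82-fold range, and the group fit gave a log2 fold change of −0.70 (SE 0.41, adjusted p = 0.392), or −0.066 with the block and without batch 1. Among the 45 matrix genes with a mean of at least 3 CPM, Fn1, Fmod, Fbln1 and Pi16 (8.89%) had a within-group SD above 0.5 on the log2 scale, against 84 of 12995 genes (0.646%). The 10 perineurial and meningeal markers summed to 157, 140.1, 182 and 159 CPM in HDM, against 258, 166, 171 and 137 CPM in Saline. Their highest library, Saline 1, and their lowest, Saline 4, were also the highest and the second lowest for Fmod. HDM 3 led the HDM libraries for the marker sum, Fmod, Fn1, Col8a2 and Col12a1, while HDM 4 led for Fbln1 and Pi16. Of these markers 0 of 10 were called in the group fit and 1, Lypd2, was lower with the block (adjusted p = 0.0426, or 0.0964 with block and GC correction). Their median log2 fold change was −0.48, and their part in the levels of these matrix genes was not tested.

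**Figure D3:**
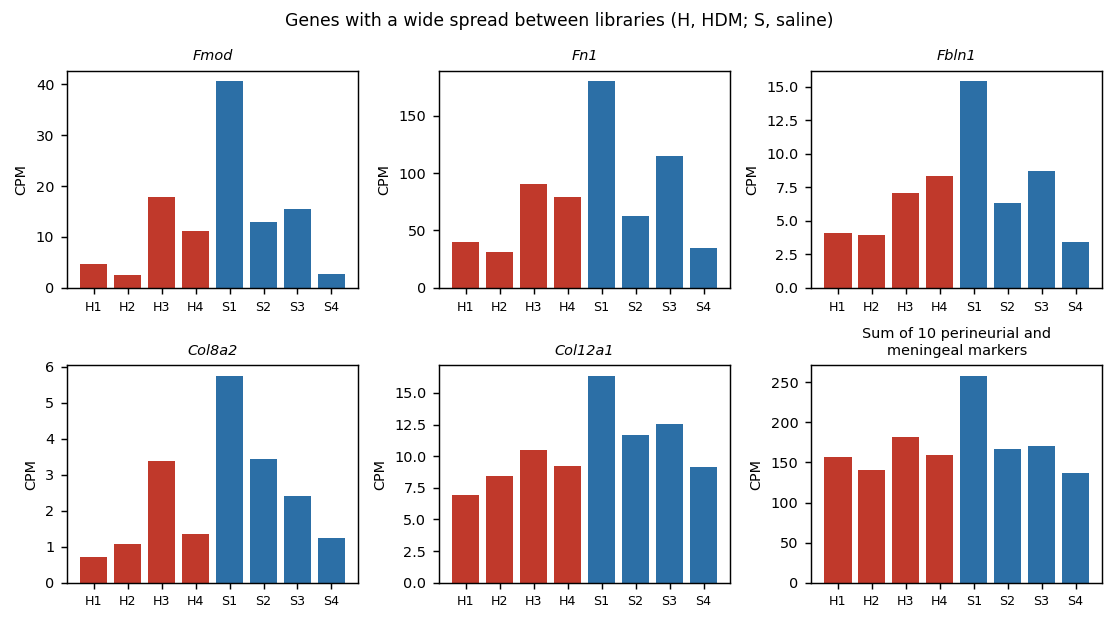
CPM in each library for the widely spread genes Fmod, Fn1, Fbln1 and Col8a2, for Col12a1, and for the sum of 10 perineurial and meningeal markers (HDM bars in red at the left, Saline bars in blue, y axes from 0). Saline 1 is the tallest bar in every panel, and HDM 1 and HDM 2 are low for the 5 genes.

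**Figure D4:**
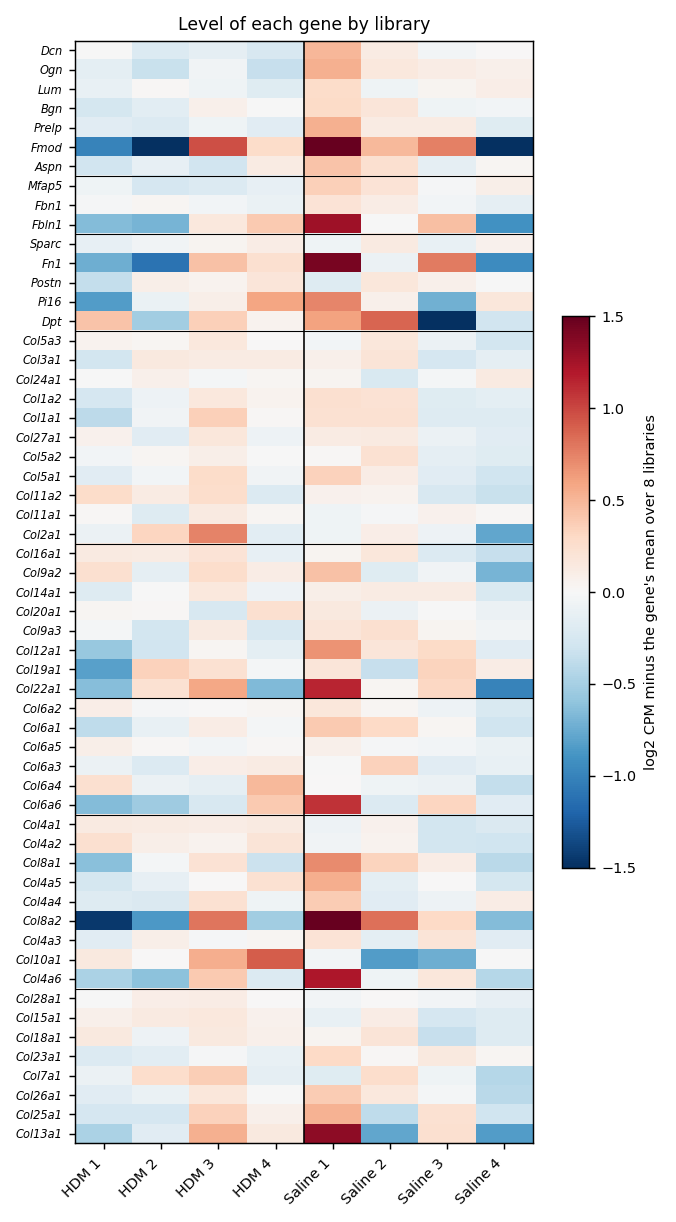
Level of each tested matrix gene in each library, as log2 CPM minus the mean of the gene over the 8 libraries (colour, drawn up to 1.5 in either direction), with HDM libraries at the left and lines between structural classes. The Saline 1 column is red for most genes, the highest library for 30 of 57, and Saline 4 is blue for many, the lowest for 22.

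Levels can be compared between genes per length, in TPM, the count of a gene divided by its length and scaled to a common total, given as the mean over 8 libraries. The most abundant matrix genes were Sparc with 449 TPM, Dcn with 289.9 TPM and Ogn with 161 TPM, and this order held in 8 of 8 libraries. Col5a3 with 104 TPM and Col28a1 with 100.2 TPM came next, their order held in 6 of 8 libraries, and they differed by less than the spread between pools. Lum followed with 64.4 TPM, then Col4a1 with 51.7, Col16a1 with 44.5, Col4a2 with 44.2 and Col3a1 with 41.9 TPM. The order of Col16a1, Col4a2 and Col3a1 changed from library to library, holding in 5 of 8 for each neighbouring pair. Collagen I chains lay below these, at 37.0 TPM for Col1a2 and 23.5 TPM for Col1a1, and the lowest was Col17a1 with 0.226 TPM. The lengths are those of all annotated exons of a gene, which can exceed the main transcript and so understate a level.

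Ratios within other collagen types did not separate the groups either. Per length, Col5a3 to Col5a1 was 5.93 ± 0.565 in HDM and 5.48 ± 0.777 in Saline, and Col6a1 to Col6a2 was 0.473 ± 0.0771 in HDM and 0.567 ± 0.0588 in Saline (SD, n = 4 each). The ratio of Dcn to Bgn was 8.06 ± 1.33 in HDM and 8.66 ± 0.691 in Saline, and that of Ogn to Lum 2.26 ± 0.249 in HDM and 2.71 ± 0.249 in Saline. The ranges overlap in all of the 11 ratios computed.

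Fold changes moved with GC content across the whole table. In the group fit the median log2 fold change was −0.08 for the 4634 genes under 45% GC and 0.16 for the 738 genes at 60% or more. Ogn has 36.3% GC and Dcn 37.4%, while Col4a1 has 57.7% and Col4a2 60.6%. Mfap5, with 48.2%, lay near the median GC of all genes, 49.5%, and had a log2 fold change of −0.30 after the correction. The median GC of the tested matrix genes was 53.6%. The 5 matrix genes under 45% had a median of −0.28, and the 9 at 60% or more a median of 0.20, with 8 of 9 above 0. In between, the medians were −0.058 at 45 to 50% (11 genes), −0.12 at 50 to 55% (19) and −0.026 at 55 to 60% (13). All genes in these 3 ranges had medians of −0.029, 0.033 and 0.09. After the correction the matrix medians from the lowest to the highest range were −0.21, −0.044, −0.14, −0.14 and 0.057. The corrected median of all 57 was −0.11. Each of these GC ranges holds under 20 matrix genes.

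**Figure D5:**
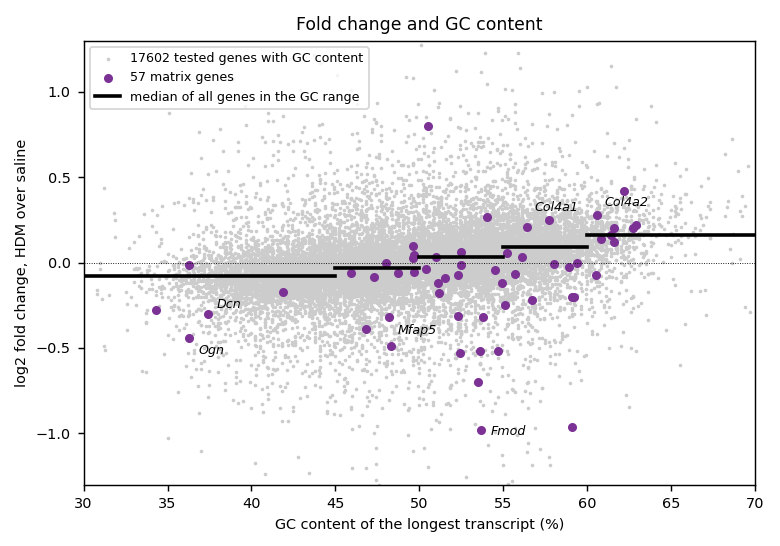
Log2 fold change (HDM over Saline, y axis) against the GC content of the longest transcript (x axis, %) for the 17602 tested genes with a transcript sequence (grey) and the 57 matrix genes (purple), with the median of all genes in each GC range as a black line. The black line runs from −0.08 at low GC to 0.16 at high GC, and 46 genes outside the axes are not drawn.

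Genes that make, process, cut or bind matrix were read from wider lists. Among all genes tested, the group fit called 1.38%, and the block called 3.01% as higher and 1.03% as lower. Of 23 tested genes of collagen modification, folding and crosslinking 0 were called in either direction, with or without the block. The smallest p was that of Plod3, a lysyl hydroxylase, with 49.5 ± 2.32 CPM in HDM pools and 44.0 ± 3.39 CPM in Saline pools (SD, n = 4 each; log2 fold change 0.17, adjusted p = 0.15). Likewise 0 of 8 procollagen processing genes, 0 of 15 laminins and other basement membrane proteins, 0 of 31 further elastic fibre and proteoglycan genes and 0 of 14 genes of the transforming growth factor beta pathway were called, with or without the block. At an unadjusted p under 0.05, 18.1% of all genes tested passed the group fit. From the lists, 5 of 23 genes of modification and folding, 0 of 8 of processing and 0 of 15 laminins passed. So did 3 of 31 elastic fibre and proteoglycan genes and 7 of 14 genes of the transforming growth factor beta pathway. DESeq2 called 1 gene of that pathway and 0 of the other 4 lists, and limma-voom 0 of all 5. The smallest p of that pathway was that of Tgfbi, a target of the ligand, with 36.2 ± 1.37 CPM in HDM pools and 42.8 ± 4.99 CPM in Saline pools (log2 fold change −0.24, adjusted p = 0.113). Of 21 proteases and inhibitors edgeR called 0 (1 at an unadjusted p under 0.05, while DESeq2 called 1 and limma-voom 0), or 1 with the block, Mmp15, a membrane-bound metalloproteinase, as higher (log2 fold change 0.23, adjusted p = 0.0902, 0.0187 with the block, and 0.237 with block and GC correction).

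The list of 19 matrix receptors held 1 call by edgeR in the group fit, against 1.38% of all genes tested. At an unadjusted p under 0.05, 6 of 19 passed, against 18.1% of all genes. DESeq2 called 4 and limma-voom 1. Ddr1, a receptor tyrosine kinase that binds collagen, rose, with 46.4 ± 2.01 CPM in HDM pools and 39.9 ± 0.547 CPM in Saline pools (SD, n = 4 each; log2 fold change 0.22, SE 0.047, adjusted p = 0.0419). With the GC correction its log2 fold change was 0.092 (adjusted p = 0.475). The call was kept without HDM 3 (adjusted p = 0.0274) and lost without HDM 1 (0.131), HDM 2 (0.165), HDM 4 (0.121), Saline 1 (0.0613), Saline 2 (0.0899), Saline 3 (0.15) or Saline 4 (0.0561). With the block Sdc3, a syndecan, was also called as higher (log2 fold change 0.24) and Cd44, the hyaluronan receptor, as lower (−0.26; adjusted p = 0.0182 for each, against 0.0911 and 0.103 in the group fit). With the GC correction the log2 fold change was 0.12 for Sdc3 and −0.20 for Cd44, and with block and GC correction the adjusted p was 0.254 for Sdc3 and 0.104 for Cd44. Over all genes the block called 3.01% as higher and 1.03% as lower. Of the other 16 receptors, the integrins among them, edgeR called none in either fit.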

How the data were processed

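Whole ganglia were homogenised, RNA was column-purified, and libraries were made with a stranded mRNA kit and sequenced as paired reads, per the labels' protocols. The authors deposited 1 table of counts, raw whole numbers per gene and library. They were made with featureCounts on GRCm38 (mm10), per the submitters' processing notes; the sources used here give no aligner, version or strand setting. Without the strand setting, reads of opposite-strand neighbours may be counted together, which concerns 25 of the 58 genes. Columns were matched to samples by the column names in the labels, and 0 columns were left over.

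Genes were annotated with GENCODE M21. The filterByExpr function of edgeR 4.0.16 (R 4.3.3) left 17618 genes and removed 37717. Counts were scaled with TMM factors, and CPM and TPM were computed from counts, factors and deposited gene lengths. The comparison of HDM with Saline used edgeR's quasi-likelihood test (2-sided, no term but group), adjusted by Benjamini-Hochberg over all genes, with calls at an adjusted p under 0.05; intervals are 95%. The batch number in the labels pairs libraries, so a fit with the batch as a block was run too. Within a batch, the deviations of both libraries from their group means correlated at 0.078, −0.047, 0.21 and 0.023 over genes, and 0 of 4 pairs correlated best with each other. Other alternatives were DESeq2 1.42.0, limma-voom (limma 3.58.1), other size factors and filters, corrections for GC content and length (a spline with 4 degrees of freedom per library, fitted where the mean log2 CPM exceeded 3), a robust dispersion, and leaving out libraries or batches. The fits with edgeR (group only, block, GC correction), limma-voom and DESeq2 were tested on simulated counts. The simulation had no batch effect, GC trend or outlying library, so it cannot show how the fits handle these.

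The matrix genes, their classes and all lists were chosen with earlier results of these data known. Values in each library are given for genes called with or without the block, the 6 most abundant, the 15 chosen by symbol, the chains of collagens I, III, IV, V and VI and the 4 collagens with the smallest p; wider lists give called genes and up to 3 others. Col12a1 and the genes named for their spread were added after their values were seen. Saline 1 was singled out after the data were seen, as was leaving batch 1 out of the blocked fit.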

Additional observations from a re-analysis of the deposited data

Results flagged for a closer look

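The level of 1 library stood apart from the other 3 of its group by Dixon's gap criterion for 3 of the 116 groups of 4 values examined, and chance alone picks out about 1 group in 20. Col3a1 had 91.8 CPM in HDM 1, against 121 to 122 CPM in the other HDM libraries. Ogn had 159 CPM in Saline 1, against 116 to 123 CPM in the other Saline libraries, and it was called without Saline 1 as well (log2 fold change −0.34, edgeR adjusted p = 0.0285). Col14a1 had 20.5 CPM in Saline 4, against 25.7 to 26.3 CPM in the other Saline libraries.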

How the results depend on the processing

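Of the matrix genes, 0 were called higher and 1 lower, and 244 genes were called in all. Without a filter on counts 2 were higher and 7 lower (722 in all), with DESeq2 2 and 4 (871 in all), and at an adjusted p under 0.10 2 and 2 (709 in all). With the replicate block 2 were higher and 3 lower (713 in all), with the GC correction 0 were lower (0 in all), with the replicate block and GC correction 0 were lower (27 in all), and with the block without batch 1 150 genes were called in all. A length correction gave 2 lower, and a robust dispersion 1 higher. Leaving out 1 library or 1 batch gave 0 to 376 genes in all, 0 to 3 matrix genes higher and 0 to 1 lower. The median log2 fold change of matrix genes lay between −0.13 and 0.058 in those fits. Beside Dcn, Mfap5, Col4a1 and Col4a2 no named matrix gene changed its call with the block.

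Small fold changes turned sign. With the GC correction, alone and with the replicate block, Col5a3 had −0.019 and −0.016, Col6a2 −0.019 and −0.016, and Postn 0.071 and 0.066. With limma-voom, the block, and the block and GC correction Dpt had 0.14, 0.035 and 0.047, with limma-voom and the block Col5a1 had 0.0088 and 0.0045, and with a length correction Col5a1 had 0.012 and Postn 0.0091. With the block and without batch 1, log2 fold changes were 0.004 for Sparc, 0.022 for Fmod, 0.11 for Dpt, 0.025 for Postn, 0.09 for Fbln1, 0.34 for Pi16, 0.028 for Col4a4, 0.077 for Col4a3, 0.082 for Col1a2, 0.16 for Col1a1, 0.17 for Col4a5 and 0.18 for Col5a1. Leaving out libraries or batches gave −0.066 to 0.043 for Sparc, −1.6 to 0.021 for Fmod, −0.44 to 0.45 for Dpt, −0.084 to 0.086 for Postn, −1.01 to 0.074 for Fbln1, −0.38 to 0.33 for Pi16, −0.038 to 0.19 for Col3a1, −0.037 to 0.11 for Col5a2, −0.28 to 0.033 for Col4a4, −0.13 to 0.071 for Col4a3, −0.14 to 0.14 for Col6a3, −0.16 to 0.17 for Col5a1, −0.2 to 0.074 for Col1a2, −0.011 to 0.12 for Col6a2, −0.23 to 0.15 for Col1a1 and −0.29 to 0.18 for Col4a5. The cause was not tested. Col17a1 had too few counts to be tested.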

Other observations

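Collagens best known from cartilage were also detected. Col2a1 had 1.63, 2.17, 2.90 and 1.55 CPM in the HDM pools and 1.66, 1.85, 1.64 and 1.01 CPM in the Saline pools. Col9a2 had 15.4, 11.9, 15.7 and 14.1 CPM in the HDM pools and 17.7, 11.5, 12.6 and 8.08 CPM in the Saline pools. Col11a2 had 27.5, 24.7, 27.3 and 19.7 CPM in the HDM pools and 23.8, 23.7, 19.3 and 18.1 CPM in the Saline pools. The groups overlap for all 3, and none was called (log2 fold changes 0.42, 0.20 and 0.22; edgeR adjusted p = 0.372, 0.59 and 0.307). Of the 10 cartilage and bone markers, Matn1 had 0 counts in all libraries, Matn3 in 7 of 8 and Acan in 3 of 8. Bglap had 0 counts in 2 of 8. Sox9 had 0.647 to 1.98 CPM, Cnmd 14.2 to 16.6 CPM, Hapln1 7.24 to 13.01 CPM and Runx2 3.77 to 5.91 CPM. Ibsp had 0.838 to 1.87 CPM and Sp7 0.126 to 0.715 CPM. HDM 3 was the highest library for Acan, Ibsp, Bglap, Sp7 and Col2a1. Sox9, Cnmd, Hapln1, Runx2 and Col9a2 were highest in Saline libraries, and Col11a2 in HDM 1. Col10a1 had 0.753, 0.685, 0.993 and 1.28 CPM in the HDM pools and 0.663, 0.383, 0.410 and 0.681 CPM in the Saline pools, a log2 fold change of 0.80 (SE 0.30, edgeR adjusted p = 0.183), from 158 counts in all, and it overlaps Nt5dc1, which is read from the opposite strand.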
